A study of Mus musculus with 11 samples.

Results

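The genes described here are 9 members of the SOX transcription factor family other than Sox2, namely Sox17, Sox7, Sox18, Sox4, Sox11, Sox15, Sox21, Sox9 and Sox13. They were chosen by name, and all 9 were present among the 48952 genes of the bulk table and the 32285 genes of the single-cell matrices. The mouse cells studied were naive extra-embryonic endoderm (nEnd), cultured stem cells that resemble the early primitive endoderm (PrE) of the blastocyst. The cells were derived from embryonic stem cells by PrE differentiation, and all samples were grown on mouse embryonic fibroblast feeders in RACL, an RPMI-based medium with Activin A, CHIR99021 (a GSK3 inhibitor) and LIF. For bulk RNA-seq, untreated nEnd of a line with an OCT4-mCherry reporter protein was sorted into a fraction with the surface receptor PDGFRA but no reporter (Pdgfra+), a fraction with both (DP) and a fraction with the reporter but no PDGFRA (Oct4+), with 3 libraries of each. For single-cell RNA-seq, PDGFRA-sorted nEnd of the Oct4LOF line was profiled without 4-hydroxytamoxifen (-4OHT, Oct4 kept) or with it (+4OHT), which removes the Oct4 gene, Pou5f1, with 1 library of each. Each assay used 1 engineered line, and the study calls the bulk libraries biological replicates without saying whether each was a separate culture or sort, so that p-values measure the spread between these libraries.

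SOX proteins bind DNA through an HMG box and usually act next to a partner factor, so that one DNA site can be read by different SOX and partner pairs. The family falls into subgroups. Sox7, Sox17 and Sox18 form the SoxF group, which is known from the primitive endoderm and from blood vessels, and SOX17 pairs with OCT4 at endoderm genes. Sox4 and Sox11 are SoxC genes of progenitor cells, Sox15 is the single SoxG gene and is expressed in embryonic stem cells, Sox21 is a SoxB2 repressor that opposes SOX2-type activators, Sox9 is a SoxE gene of cartilage and many epithelia, and Sox13 belongs to SoxD.

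The sorted libraries held 8019631 to 11642571 reads each. The genes behind the sort followed the labels: Pou5f1, which encodes OCT4, had a mean of 17.5 CPM (reads scaled to a common library total) in Pdgfra+, 229 in DP and 981 in Oct4+, and Pdgfra had 729, 590 and 7.43 CPM. A list of 12 endoderm markers without any SOX gene summed to 51600 to 68900 CPM in Pdgfra+, 36500 to 51900 in DP and 273 to 697 in Oct4+, and 10 epiblast (Epi) markers summed to 171 to 266, 629 to 949 and 3030 to 4590 CPM. A list of 10 markers of feeder fibroblasts reached 160 CPM in Oct4+ replicate 1 but 1.83 to 24.9 CPM in the other 8 libraries. In such bulk samples, fewer cells of a type and less RNA per cell cannot be told apart.

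Between Oct4+ and the groups sorted for PDGFRA, the members fell into genes that were high in PDGFRA-sorted cells (Sox17, Sox7 and Sox21), genes that were high in Oct4+ cells (Sox11 and Sox15) and genes of which neither was shown (Sox4 and Sox13). Past the threshold here means an adjusted p below 0.05 by edgeR's quasi-likelihood test and an absolute log2 fold change above 1.5. Of the 9 members, 7 passed the filter on low counts and were tested, and Sox11 and Sox15 passed it through the Oct4+ libraries alone, so that they had to differ there and the counts that follow are a description. Between DP and Oct4+, 5 of the 7 were past the threshold, 3 higher and 2 lower in DP, where 27.7% of all 14185 genes tested were past it, 13.1% higher and 14.6% lower. Between Oct4+ and Pdgfra+, 5 of the 7 were past it as well, 2 higher and 3 lower in Oct4+, against 32% of all genes, 17.3% higher and 14.7% lower. Between DP and Pdgfra+ none of the 7 was past it, against 3.89% of all genes, 3.2% higher and 0.691% lower. The Oct4+ group is used in both of the former comparisons, and their values are not independent of each other.

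The libraries of the groups compared did not overlap for 5, 5 and 2 of the 7 members, where this held for 62.6%, 69.3% and 34.2% of all genes in the same order of comparisons. The median log2 fold change of the 7 was -0.68, -0.15 and -0.51, beside -0.04, 0.01 and 0.02 over all genes tested.

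**Figure D1:**
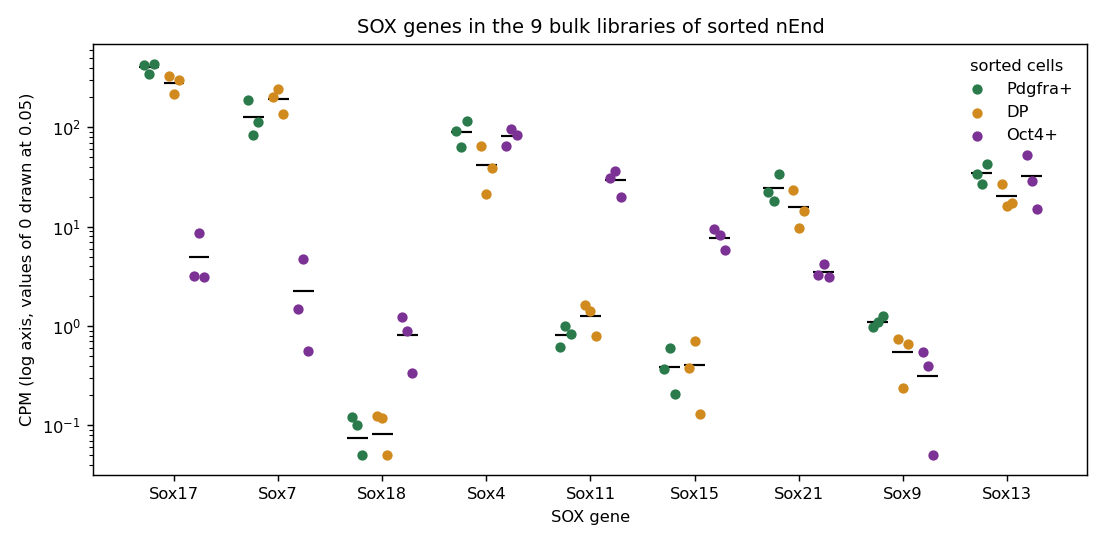
Expression of the 9 SOX genes in the 9 sorted nEnd libraries, in CPM on a log axis (points, libraries; bars, means of 3; a value of 0 is drawn at the bottom of the axis). Sox17 and Sox7 lie far lower in the 3 Oct4+ libraries than in the Pdgfra+ and DP libraries, Sox11 and Sox15 far higher, and the Sox4 and Sox13 points of Oct4+ and Pdgfra+ overlap.

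Sox17 encodes the SOX factor that marks the early primitive endoderm. It lies on chromosome 1 at 4490931 to 4497354 on the minus strand (GRCm38, ENSMUSG00000025902.13), where a noncoding gene, Gm37587, overlaps it on the opposite strand. Its level was 419.8, 346 and 439 CPM in the 3 Pdgfra+ libraries, 331, 216 and 302 CPM in DP, and 3.18, 8.68 and 3.10 CPM in Oct4+. Every DP library lay below every Pdgfra+ library, and both groups lay well above Oct4+. Sox17 was higher in DP than in Oct4+ by 5.83 on the log2 scale (SE 0.39, edgeR adjusted p = 4.37e-06), and lower in Oct4+ than in Pdgfra+ at a log2 fold change of -6.33 (SE 0.40, adjusted p = 2.16e-06). The difference of DP from Pdgfra+, -0.51 (95% interval -1.19 to 0.18, adjusted p = 0.33), was within the spread, although with the replicate number as a block in the 6 libraries the same estimate had an adjusted p of 0.0251.

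Sox7, the SoxF gene most tied to parietal endoderm, is a 2-exon gene on chromosome 14 at 63943673 to 63950732 on the plus strand (ENSMUSG00000063060.6). It measured 187, 83.5 and 114 CPM in Pdgfra+, 202, 242 and 137 CPM in DP, and 1.47, 4.73 and 0.554 CPM in Oct4+. Here the DP and Pdgfra+ libraries overlapped, and both stood above Oct4+. Sox7 was higher in DP than in Oct4+ by 6.42 on the log2 scale (SE 0.60, adjusted p = 2.11e-05), and lower in Oct4+ than in Pdgfra+ at -5.82 (SE 0.59, adjusted p = 2.4e-05), whereas DP differed from Pdgfra+ by 0.60 (95% interval -0.39 to 1.59, adjusted p = 0.428).

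Both genes were highest among the Oct4+ libraries in replicate 2, with 88 Sox17 reads against 41 and 28, and 48 Sox7 reads against 19 and 5. The endoderm markers moved with them, at 697 CPM in that library against 303 and 273 CPM, and their part in the 2 values was not tested.

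The pair differed in how they stood to each other. For each Sox17 read, the Pdgfra+ libraries held 0.445, 0.241 and 0.26 Sox7 reads, the DP libraries 0.612, 1.12 and 0.452, and the Oct4+ libraries 0.463, 0.545 and 0.179. The ratio was higher in every DP library than in every Pdgfra+ library, with mean log2 ratios of -0.56 ± 0.67 and -1.72 ± 0.48 (SD, n = 3 each), a difference of 1.16 with a two-sided exact permutation p of 0.1, the smallest that 3 against 3 libraries can give. DP differed from Oct4+ by 0.93 (exact permutation p = 0.3), and Oct4+ from Pdgfra+ by 0.23 (exact permutation p = 0.8). The ratio was chosen after the values of both genes had been seen, and none of its 3 tests reached the threshold. These tests took the libraries as unpaired, although DP and Pdgfra+ libraries of the same replicate number deviated together across genes.

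**Figure D2:**
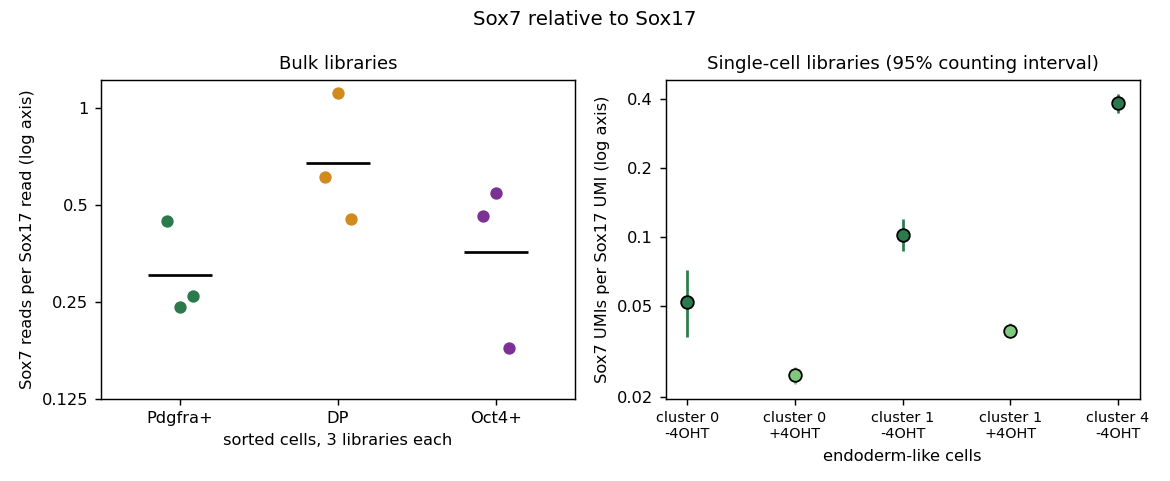
Sox7 reads per Sox17 read in the 9 sorted libraries (points, libraries; bars, geometric means of 3) and Sox7 UMIs per Sox17 UMI in single-cell clusters 0 and 1 of both libraries and cluster 4 of -4OHT (intervals, 95%, counting error only). The 3 DP points (0.452 to 1.12) lie above the 3 Pdgfra+ points (0.241 to 0.445), and cluster 4 of the -4OHT library (0.381) lies above clusters 0 (0.0517) and 1 (0.102).

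Sox18, the SoxF gene of endothelium and lymphatic vessels, was close to absent. The gene, on chromosome 2 at 181669836 to 181671640 on the minus strand (ENSMUSG00000046470.5), had 1, 1 and 0 reads in Pdgfra+, 1, 1 and 0 in DP and 16, 9 and 3 in Oct4+, and it did not pass the filter. All 3 Oct4+ libraries lay above the other 6. Over the group, the Oct4+ to Pdgfra+ ratio of summed reads per total reads was 14.7 (95% counting interval 3.7 to 127). For both comparisons with Oct4+ the exact permutation p of CPM was 0.1, the smallest possible. With no filter on low counts, edgeR put Sox18 higher in Oct4+ than in Pdgfra+ by 3.29 on the log2 scale (adjusted p = 0.00817) and lower in DP than in Oct4+ at -3.12 (adjusted p = 0.0158). Of 8 endothelial markers, Emcn was at 0 reads in all groups, and the list summed to 40.6 to 45.5 CPM in Oct4+ against 80.8 to 147 CPM in the other libraries, most of it from Egfl7.

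The next members are shown with the sequence before their start, since Sox11 and Sox15 rose together in Oct4+ while Sox4 did not differ between Oct4+ and Pdgfra+ beyond the spread. The 250 bases before the RefSeq start are written 5′ to 3′ on the gene's own strand (GRCm38.p6: Sox11 at chr12:27342719-27342968, minus strand; Sox15 at chr11:69654787-69655036, plus strand; Sox4 at chr13:28953700-28953949, minus strand). Capitals mark every match, on either strand, to GGGCGG (the GC box), to the letters CCAAT of the box of that name, to TATAAA (the TATA box), to ACAAAG (a core that SOX and TCF proteins share), to ACAATG (another core of SOX proteins), to AGATAA (the GATA motif) and to ATGCAAAT (the octamer of POU factors).
Sox11: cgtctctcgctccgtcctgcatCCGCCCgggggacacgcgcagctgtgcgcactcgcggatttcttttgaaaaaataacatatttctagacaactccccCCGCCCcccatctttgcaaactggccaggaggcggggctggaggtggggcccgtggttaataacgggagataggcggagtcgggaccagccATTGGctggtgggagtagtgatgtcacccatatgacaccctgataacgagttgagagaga
Sox15: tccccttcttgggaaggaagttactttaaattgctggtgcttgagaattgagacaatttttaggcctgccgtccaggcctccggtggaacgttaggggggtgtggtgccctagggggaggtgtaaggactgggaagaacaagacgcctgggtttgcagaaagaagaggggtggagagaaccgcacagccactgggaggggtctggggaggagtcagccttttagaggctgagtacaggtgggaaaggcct
Sox4: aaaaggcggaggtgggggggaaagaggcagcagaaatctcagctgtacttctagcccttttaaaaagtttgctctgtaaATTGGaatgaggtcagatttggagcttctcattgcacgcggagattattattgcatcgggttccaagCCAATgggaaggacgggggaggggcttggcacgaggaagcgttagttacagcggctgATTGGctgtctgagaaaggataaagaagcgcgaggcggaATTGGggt
The Sox11 window held 2 GC boxes and 1 CCAAT, the Sox4 window 4 CCAAT, and the Sox15 window no match to any of the 7 motifs. Of all 32851 RefSeq promoters of this length, 32.7% held the GC box, 33.8% the CCAAT box, 12.4% the TATA box, 16.5% the shared SOX and TCF core, 10.7% the other SOX core, 9.99% the GATA motif and 1.6% the octamer. Base composition was 58% GC for Sox11, 55.6% for Sox15 and 50.8% for Sox4, beside a median of 52.4% over all promoters. Such matches describe letters and not bound sites. The RefSeq starts of Sox11, Sox15 and Sox4 differ from the starts in the gene coordinates given below, which come from GENCODE. Sequences were found for 5 of the 9 members, the other 2 being Sox13 and Sox21, whose windows also held no match to any of the 7 motifs.

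Sox11, a SoxC activator best known from neural progenitors, lies on chromosome 12 at 27334264 to 27342574 on the minus strand (ENSMUSG00000063632.6). It had 5, 10 and 8 reads in Pdgfra+, 13, 12 and 6 in DP, and 400, 371 and 180 in Oct4+, or 0.814 ± 0.194, 1.27 ± 0.436 and 29.2 ± 8.46 CPM (SD, n = 3 each). The Oct4+ libraries stood apart from the other 6, while Pdgfra+ and DP overlapped. Sox11 was lower in DP than in Oct4+ at a log2 fold change of -4.50 (SE 0.37, adjusted p = 1e-05), higher in Oct4+ than in Pdgfra+ by 5.13 (SE 0.38, adjusted p = 4.59e-06), and 0.63 apart between DP and Pdgfra+ (adjusted p = 0.368).

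Sox15 on chromosome 11, at 69655314 to 69656727 on the plus strand (ENSMUSG00000041287.5), overlaps Mpdu1 on the opposite strand. It had 3, 6 and 2 reads in Pdgfra+, 3, 6 and 1 in DP, and 121, 83 and 52 in Oct4+, the last being 7.77 ± 1.84 CPM (SD, n = 3). As for Sox11, only the Oct4+ libraries were high. Sox15 was lower in DP than in Oct4+ at -4.20 (SE 0.54, adjusted p = 0.000143) and higher in Oct4+ than in Pdgfra+ by 4.26 (SE 0.54, adjusted p = 9.18e-05), and between DP and Pdgfra+ the estimate was 0.06 (95% interval -1.38 to 1.5, adjusted p = 0.963). Whether the authors' counting used strand is not given in the sources used here, so that reads of Mpdu1 could add to these counts.

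Sox4, the other SoxC gene, did not follow Sox11. The gene, on chromosome 13 at 28948919 to 28953713 on the minus strand (ENSMUSG00000076431.4) with Gm26735 on the opposite strand, measured 91.7, 64.1 and 115 CPM in Pdgfra+, 64.95, 21.5 and 39.2 CPM in DP, and 64.9, 95.1 and 83.9 CPM in Oct4+. The lowest values were those of DP replicates 2 and 3, and DP replicate 1 reached the lowest library of either other group. The Sox4 estimate for DP against Pdgfra+ was -1.11 (95% interval -1.91 to -0.31), with an adjusted p of 0.0905 that did not pass. Over the alternatives tried its adjusted p ran from 0.00355 to 0.275, with 0.0298 by DESeq2 and 0.0236 with the replicate block in 6 libraries, and without DP replicate 1 it passed at -1.58 (adjusted p = 0.024). Against Oct4+, the DP estimate was -0.96 (adjusted p = 0.0421, range over alternatives 0.00368 to 0.115), short of the minimum fold, and Oct4+ differed from Pdgfra+ by -0.15 (95% interval -0.93 to 0.63, adjusted p = 0.719).

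Sox21, a repressor studied in neural differentiation and in cell choices of the cleavage embryo, was a further gene of the PDGFRA-sorted cells. On chromosome 14 at 118233232 to 118237030 on the minus strand (ENSMUSG00000061517.8, with Gm4675 on the opposite strand), it measured 22.1, 18.0 and 34.2 CPM in Pdgfra+, 23.6, 9.79 and 14.5 CPM in DP, and 3.26, 4.24 and 3.10 CPM in Oct4+. Pdgfra+ and DP overlapped, and every library of both lay above Oct4+. Sox21 was higher in DP than in Oct4+ by 2.17 (SE 0.37, adjusted p = 0.000801) and lower in Oct4+ than in Pdgfra+ at -2.81 (SE 0.38, adjusted p = 0.000135), with -0.64 between DP and Pdgfra+ (adjusted p = 0.28). The 7 neural markers did not move with it, and summed to 47 to 140 CPM in Oct4+, 10.5 to 33.5 CPM in DP and 21.9 to 59.7 CPM in Pdgfra+.

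Sox13, a SoxD gene known from T cell development, lies on chromosome 1 at 133382303 to 133424377 on the minus strand (ENSMUSG00000070643.11). It had 33.9, 27.2 and 42.5 CPM in Pdgfra+, 27.1, 16.1 and 17.5 CPM in DP, and 53.2, 28.6 and 14.96 CPM in Oct4+. The Oct4+ libraries spanned the values of both other groups, and the highest, replicate 1, was also the library in which feeder markers reached 160 CPM; their part in it was not tested. None of the comparisons passed, with -0.77 for DP against Pdgfra+ (adjusted p = 0.263, and 0.0445 with the replicate block in 6 libraries), -0.68 for DP against Oct4+ (adjusted p = 0.176) and -0.09 for Oct4+ against Pdgfra+ (95% interval -0.98 to 0.79, adjusted p = 0.85).

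Sox9, required for cartilage, was low everywhere and did not pass the filter. On chromosome 11 at 112782224 to 112787760 on the plus strand (ENSMUSG00000000567.5), it had 8, 11 and 12 reads in Pdgfra+, 6, 2 and 5 in DP, and 7, 4 and 0 in Oct4+. Every Pdgfra+ library was above every DP and every Oct4+ library. In summed reads per total reads, the DP to Pdgfra+ ratio was 0.494 (95% counting interval 0.237 to 0.973) and the Oct4+ to Pdgfra+ ratio 0.372 (0.169 to 0.761). Both had an exact permutation p of CPM of 0.1, the smallest possible, and DP to Oct4+ was 1.33 (0.549 to 3.27, exact permutation p = 0.4).

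**Figure D3:**
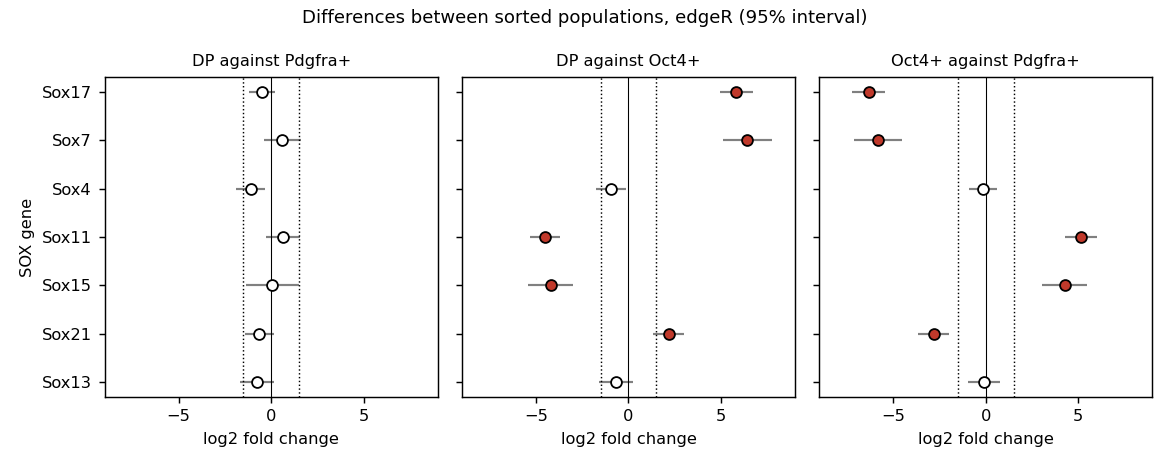
Log2 fold changes of the 7 SOX genes tested, for each pair of sorted groups, with 95% intervals from the edgeR fit (filled red points, past the threshold; dotted lines, log2 fold changes of -1.5 and 1.5). No point is filled for DP against Pdgfra+, and 5 of 7 are filled in each comparison with Oct4+.

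To compare genes with each other, CPM was divided by the exon length in kilobases (CPM per kb). In Pdgfra+ the order was Sox17 (84.1 ± 10.3, SD, n = 3), Sox7 (38.8 ± 16.1), Sox4 (18.9 ± 5.36), Sox13 (8.01 ± 1.78) and Sox21 (6.52 ± 2.22), with the remaining 4 at or below 0.454, and Sox13 and Sox21 overlapped. In DP, Sox17 (59.2 ± 12.5) and Sox7 (58.7 ± 16.2) overlapped at the top, followed by Sox4 (8.73 ± 4.56), Sox13 (4.69 ± 1.39) and Sox21 (4.2 ± 1.84), which also overlapped as neighbours. In Oct4+ the order was Sox4 (17.0 ± 3.19), Sox15 (9.03 ± 2.14), Sox13 (7.48 ± 4.49), Sox11 (3.51 ± 1.02) and Sox17 (1.04 ± 0.67), of which Sox15 and Sox13, and Sox13 and Sox11, overlapped. Sox21, Sox7, Sox18 and Sox9 followed, at 0.93, 0.683, 0.506 and 0.0755 CPM per kb, and the libraries of Sox17, Sox21 and Sox7, and of Sox7 and Sox18, overlapped.

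Across the 9 libraries, the genes with the profile most like that of Sox17 were Col4a1, Col4a2 and Lamb1, each with r = 0.999 of log2 CPM. For Sox7 they were St3gal1 (0.998), Rassf1 (0.995) and Ttc39a (0.994), for Sox15 Morf4l1, Tcea1 and Pitpnc1 (0.993 each), and for Sox4 Ncbp3 (0.989), Cyth2 (0.957) and Sik3 (0.951). Among members, Sox17 and Sox7 had r = 0.974 and Sox11 and Sox15 r = 0.98 over the same 9 libraries. These values describe 3 groups of 3 libraries that share their sort, and 10518 genes were compared.

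Of 11 other SOX genes, 8 were tested, and their median log2 fold change was 0.72 in DP against Pdgfra+, -2.30 in DP against Oct4+ and 3.02 in Oct4+ against Pdgfra+. Between DP and Pdgfra+ only Sox2, the partner of OCT4 in pluripotent cells, was past the threshold (higher in DP by 3.40, adjusted p = 0.0101), and between DP and Oct4+ 4 were lower in DP (Sox1, Sox3, Sox2 and Sox8). In Oct4+ against Pdgfra+, Sox1, Sox2 (7.78, adjusted p = 1.98e-06), Sox8 (5.75, adjusted p = 0.00177) and Sox3 (5.10, adjusted p = 1.56e-05) were higher and 2, Sox5 and Sox6, were lower. Of all genes tested, 3.89%, 27.7% and 32% were past the threshold in these 3 comparisons. The share lower in DP than in Oct4+ was 14.6%, and in Oct4+ against Pdgfra+ 17.3% were higher and 14.7% lower. Sox1 and Sox8 passed the filter on low counts through the Oct4+ libraries alone, so that they had to differ there. Their calls are a description. Sox5 and Sox6 would not have passed the filter without the Pdgfra+ libraries, where they were high, so that their calls are a description too. Sox1, a SoxB1 gene of the neural plate, had 170, 50 and 42 reads in Oct4+ and 0 reads in each Pdgfra+ library.

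Of 9 tested POU and TCF/LEF genes, whose proteins pair with or compete with SOX proteins, 5 were past the threshold in Oct4+ against Pdgfra+, where 32% of all genes were. The 4 higher in Oct4+ were Pou2f2 (5.94, adjusted p = 8.18e-05), Pou5f1 (5.82, a gene of the sort), Lef1 (5.45, adjusted p = 0.000453) and Pou3f1 (4.16, adjusted p = 0.00167), with Tcf7l2 lower (-3.90, adjusted p = 9.86e-05). Pou2f2 had means of 0.0755 CPM in Pdgfra+ and 0.544 CPM in DP. It passed the filter on low counts through the Oct4+ libraries, so that its calls against Oct4+ are a description. In DP against Oct4+, 4 of the 9 were lower and 1 higher (27.7% of all genes were past the threshold), and in DP against Pdgfra+ 1, Pou5f1, was higher (3.89% of all genes were past it). The medians were 1.24, -1.49 and -0.07 in the same order. Of 14 endoderm genes studied with SOX17 and SOX7, 13 were lower in Oct4+ than in Pdgfra+ and 13 were higher in DP than in Oct4+, with median log2 fold changes of -5.54 and 5.60. Of all genes tested, 14.7% and 13.1% were past the threshold in these directions. Between DP and Pdgfra+ none of the 14 was past it (median -0.33), where 3.89% of all genes were. At an edgeR adjusted p below 0.05 alone the count was 0 of 14, beside 975 of all 14185 genes. The farthest apart between Oct4+ and Pdgfra+ were the basement membrane genes Col4a2 (-7.86, adjusted p = 2.88e-06), Col4a1 (-7.73, adjusted p = 2.59e-06) and Lama1 (-7.64, adjusted p = 9.25e-07), and Pdgfra itself (-6.62), a gene of the sort. The exception in both was Hhex (-0.09 and 0.86).

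In the single-cell libraries, 5224 of 6896 barcodes were kept in -4OHT (median 18146 UMIs) and 6220 of 7283 in +4OHT (median 12725 UMIs), and 17 kept barcode sequences occurred in both libraries. Pou5f1 was at 40.3 CPM in -4OHT and 2.48 CPM in +4OHT, although whether the 3′ tags lie within the deleted part is not given in the sources used here. Cells were clustered without any SOX gene and named from markers that hold none. In -4OHT, 70.5% of cells were Epi-like, 25.4% endoderm-like and 3.62% unnamed, although the cells had been sorted for PDGFRA before culture. In +4OHT, 96.3% were endoderm-like, 3.14% trophectoderm-like and 0.0804% unnamed. The trophectoderm-like cluster had 4 of the 10 trophectoderm markers raised, namely Cdx2, Tfap2c, Krt8 and Krt18. The others, Gata3, Gata2, Elf5, Hand1, Tfap2a and Eomes, stayed under 20 CPM, and endoderm-like clusters 0 and 1 had 2 of the 10 raised each. The cluster also held 9 of the 12 endoderm and 6 of the 10 Epi markers at 20 CPM or more. Its 10 trophectoderm markers summed to 1016 CPM, beside 1166 CPM in the endoderm-like cells of the library. With 1 library per condition no difference between conditions was tested, and all intervals below are 95% intervals for counting error only.

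By class, Sox11 and Sox15 were higher in Epi-like cells and Sox17 and Sox7 in endoderm-like cells. In Epi-like cells of -4OHT, Sox11 was at 25 CPM (23.9 to 26.2) and Sox15 at 12.6 CPM (11.8 to 13.4), against 3.78 CPM and 1.08 CPM in the endoderm-like cells of the same library. In those endoderm-like cells Sox17 was at 186 CPM (181 to 192) and Sox7 at 37.8 CPM (35.3 to 40.5), against 2.22 CPM and 0.915 CPM in Epi-like cells. Sox4 differed less, at 26.1 CPM in Epi-like and 34.7 CPM in endoderm-like cells, while Sox13 was at 11.1 and 2.61 CPM, although in bulk its Oct4+ libraries overlapped both other groups. Sox21 was low in both, at 2.21 CPM (1.88 to 2.57) in Epi-like and 4.28 CPM (3.46 to 5.23) in endoderm-like cells.

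Counted by cells, Sox17 had a UMI in 83.2% of endoderm-like cells of -4OHT (median 14965 UMIs) and in 3.85% of Epi-like cells (median 19038 UMIs), which should lack it. After thinning every cell to 5000 UMIs these shares were 54.4% and 0.924%. Sox7 had a UMI in 40.2% and 1.71% of the same cells, or 15.5% and 0.353% thinned. Sox11 was found in 31.4% of Epi-like and 4.6% of endoderm-like cells (10.3% and 1.36% thinned) and Sox15 in 20% and 1.74% (5.46% and 0.454% thinned), so that the endoderm-like shares are the background against which the Epi-like ones are read. In Epi-like cells thinned this way, 379 had a Sox11 UMI, 201 a Sox15 UMI and 15 both.

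**Figure D4:**
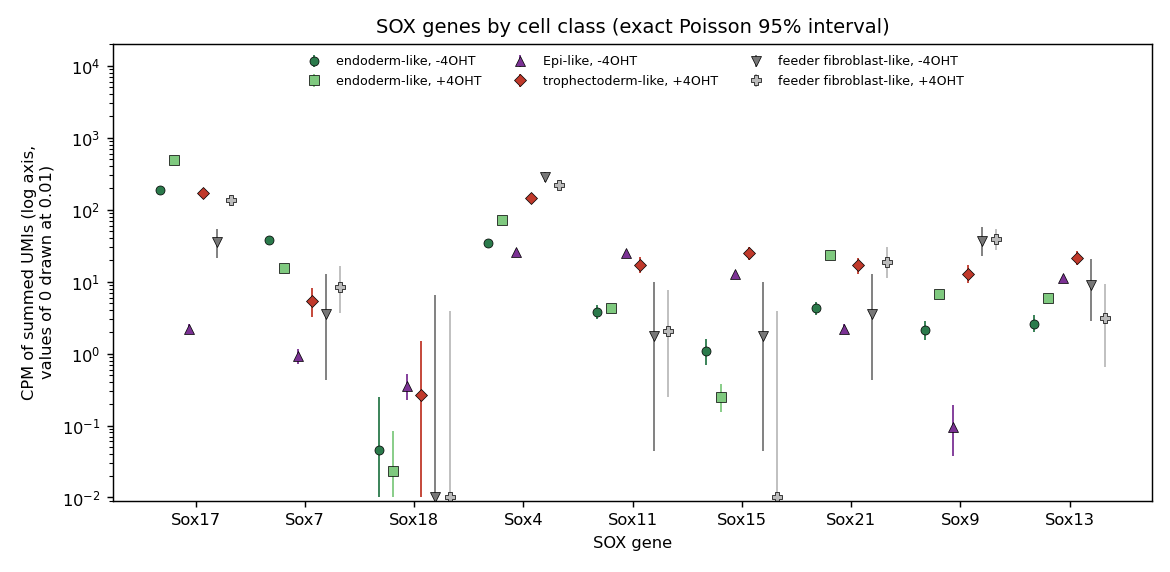
Expression of the 9 SOX genes in cell classes of the -4OHT and +4OHT libraries, as CPM of summed UMIs on a log axis (vertical lines, 95% Poisson intervals, counting error only; a value of 0 is drawn at the bottom of the axis). Sox17 and Sox7 are highest in endoderm-like cells, Sox11 in Epi-like cells and Sox15 in trophectoderm-like and Epi-like cells.

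Sox15 was not confined to Epi-like cells. In the 195 trophectoderm-like cells of +4OHT it was at 24.7 CPM (20 to 30.3, 93 UMIs), while the 5988 endoderm-like cells of that library had 0.246 CPM (21 UMIs). A Sox15 UMI was found in 25.6% of trophectoderm-like cells and 0.351% of endoderm-like cells (10.3% and 0.101% thinned), with median depths of 18024 and 12603 UMIs. Sox4 was also high in this class, at 146 CPM (134 to 159) against 71.8 CPM in endoderm-like cells, and Sox13 was at 21.3 CPM against 5.83 CPM.

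Genes of the other classes were present there too, with Sox17 at 168 CPM, Sox2 at 85.4 CPM and Pou5f1 at 19.4 CPM, against 482, 0.305 and 1.75 CPM in the endoderm-like cells, and their part in the Sox15 level was not tested. Among the 195 cells thinned to 5000 UMIs, 65 had a Sox17 UMI, 20 a Sox15 UMI and 4 both, so that Sox15 was found in 6.15% of the cells with Sox17 and 12.3% of those without. The feeder fibroblast-like cells, 20 in -4OHT and 31 in +4OHT, had Sox4 at 281 and 223 CPM and Sox9 at 37.1 and 38.7 CPM.

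Over all kept cells, 4 members reached 20 CPM in a library and all 4 differed by more than 2-fold between the conditions. Sox17 (45.5 to 465 CPM, ratio 10.2), Sox4 (29.9 to 76.5 CPM, ratio 2.56) and Sox21 (2.70 to 23.3 CPM, ratio 8.63) were higher in +4OHT, and Sox11 (20.5 to 4.83 CPM, ratio 0.236) was lower, although thinned to 5000 UMIs per cell Sox11 was at 19.2 and 4.79 CPM, under the floor. Under a stricter barcode filter the Sox17 values were 23.6 and 448 CPM, a ratio of 19. Sox21 and Sox11 reached 20 CPM only in the library where they were high. Given their 2.70 and 4.83 CPM in the other library, any value of 20 CPM or more was past 2-fold. The count is thus in part fixed by this floor. Of 7106 genes at that level, 33.3% were past 2-fold, 22.9% higher and 10.4% lower, with a median log2 ratio of 0.25. The class shares above differ between the libraries in the same way, so that class content and level per cell cannot be told apart in these values. Sox15 (9.73 to 1.32 CPM), Sox9 (0.799 to 7.33 CPM), Sox7 (9.27 to 14.7 CPM), Sox13 (9.01 to 6.44 CPM) and Sox18 (0.276 to 0.0333 CPM) stayed under 20 CPM.

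Within endoderm-like cells, Sox17, Sox21 and Sox4 were higher and Sox7 was lower in +4OHT. Sox17 went from 186 to 482 CPM (ratio 2.59, 2.51 to 2.67), Sox21 from 4.28 to 23.7 CPM (ratio 5.54, 4.50 to 6.87) and Sox4 from 34.7 to 71.8 CPM (ratio 2.07, 1.92 to 2.23), while Sox7 went from 37.8 to 15.2 CPM (ratio 0.402, 0.368 to 0.439). These 4 were all the members at 20 CPM or more, and 11.9% of 6814 such genes were past 2-fold, 8.38% higher and 3.48% lower, with a median log2 ratio of 0.14. Sox21 and Sox7 reached 20 CPM only in the library where they were high. Given its 4.28 CPM in -4OHT, Sox21 could not reach 20 CPM in +4OHT without being past 2-fold. Sox17 and Sox7, the SoxF genes of endoderm, stood on opposite sides. The share of endoderm-like cells with a UMI went the same way, from 83.2% to 95.8% for Sox17, from 6.19% to 24.4% for Sox21, from 27.3% to 42.7% for Sox4 and from 40.2% to 15.7% for Sox7. Thinned to 5000 UMIs, they were 54.4% and 84.5%, 1.89% and 11.6%, 15.3% and 23.5%, and 15.5% and 6.87%.

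Different clusters made up this class in each library. Cluster 4, led by the visceral endoderm receptor genes Amn and Cubn, held 702 of the 1325 endoderm-like cells in -4OHT and 5 of 5988 in +4OHT, while clusters 0 and 1 held 203 and 420 in -4OHT and 3734 and 2249 in +4OHT. Cluster 4 had less Sox17 (115 CPM) and Sox4 (7.59 CPM) and more Sox7 (43.8 CPM) than clusters 0 and 1 of its own library. Epi markers summed to 2577 CPM in the endoderm-like cells of -4OHT and to 676 CPM in those of +4OHT, and their part in the differences was not tested.

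The comparison was therefore repeated within clusters 0 and 1, a choice made after the data were seen. Pou5f1 was low there in both libraries, at 2.19 CPM in -4OHT and 2.21 CPM in +4OHT in cluster 0, and 3.35 and 1.23 CPM in cluster 1. Cluster 4 of -4OHT had 21.9 CPM. The ratios within clusters 0 and 1 thus do not compare endoderm-like cells rich in Pou5f1 with cells that lost it. In cluster 0, Sox17 went from 330 to 486 CPM (ratio 1.47, 1.37 to 1.59), Sox21 from 13.1 to 28.3 CPM (2.16, 1.5 to 3.21), Sox7 from 17.0 to 12.1 CPM (0.707, 0.51 to 1.01) and Sox4 from 119 to 85.8 CPM (0.722, 0.638 to 0.819). In cluster 1, Sox17 went from 307 to 479 CPM (1.56, 1.48 to 1.64), Sox21 from 3.7 to 18.8 CPM (5.09, 3.31 to 8.28), Sox7 from 31.3 to 18.6 CPM (0.593, 0.503 to 0.702) and Sox4 from 68.7 to 57.1 CPM (0.831, 0.747 to 0.928). Sox17 and Sox21 were higher and Sox4 lower in +4OHT in both clusters, the last opposite to its class value, whereas the Sox7 interval included 1 in cluster 0, where -4OHT held 39 Sox7 UMIs. Past 2-fold at 20 CPM was 1 member (Sox21) in cluster 0 and 0 in cluster 1, where Sox21 stayed under 20 CPM, beside 1.4% and 2.19% of all genes at that level.

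**Figure D5:**
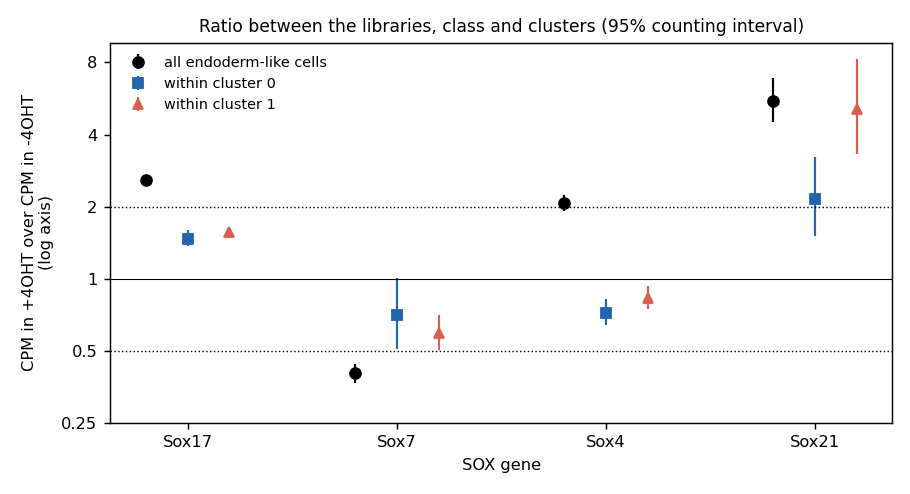
Ratio of CPM in +4OHT over -4OHT for Sox17, Sox7, Sox4 and Sox21 in all endoderm-like cells and within clusters 0 and 1 (intervals, 95%, counting error only; dotted lines, ratios of 0.5 and 2; log axis). Sox17 and Sox21 lie above 1 in all 3, the Sox7 interval reaches 1.01 in cluster 0, and Sox4 lies at 2.07 in the class but at 0.722 and 0.831 within the clusters.

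The number of Sox7 UMIs for each Sox17 UMI was lower in +4OHT in each population. It was 0.203 (0.188 to 0.219) in -4OHT and 0.0316 (0.0298 to 0.0334) in +4OHT over endoderm-like cells, 0.0517 and 0.0248 in cluster 0, and 0.102 and 0.0389 in cluster 1. In cluster 4 of -4OHT it was 0.381 (0.347 to 0.418), the highest of the 3 endoderm-like clusters.

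The other members were low in endoderm-like cells. Sox9 was at 2.12 CPM in -4OHT and 6.75 CPM in +4OHT, Sox13 at 2.61 and 5.83 CPM, Sox11 at 3.78 and 4.33 CPM, Sox15 at 1.08 and 0.246 CPM, and Sox18 had 1 and 2 UMIs. Sox9 went from 10.1 to 7.85 CPM in cluster 0 and from 3.52 to 5.56 CPM in cluster 1, so that no single direction held for it.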

How the data were processed

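The 9 members and the gene lists were chosen with earlier results of these data known. For the sorted groups, the authors deposited read counts of directional libraries, unnormalized, 1 value for each gene symbol. The aligner, counting tool, genome build, annotation and use of strand were not given in the sources used here. For single cells, the authors deposited raw UMI counts per barcode called as a cell. Per the labels, Cell Ranger and bcl2fastq were among the tools and mm10 was the build. The bulk table had 35 blank lines, which hold no counts and were left out.

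The bulk analysis used edgeR 4.0.16 and limma 3.58.1 under R 4.3.3. The default filterByExpr kept 14185 genes, libraries were scaled by TMM, all 9 libraries entered 1 model with a term for the group alone, and each pair was compared by the quasi-likelihood test with Benjamini-Hochberg adjustment over all genes tested. DESeq2 1.42.0 was an alternative. The 9 pairs of libraries within groups differed beyond sampling noise (chi-square per degree of freedom 16.7 to 36.6), and each was treated as a replicate. Such a spread does not show whether the libraries came from separate cultures or sorts. Across genes, deviations of libraries with the same replicate number correlated at 0.271, 0.477 and 0.321 between DP and Pdgfra+, so that the counts, not a label, pair these groups. The same check gave 0.0383, -0.00412 and -0.0465 for Pdgfra+ and Oct4+, and 0.0222, -0.0728 and 0.152 for DP and Oct4+.

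Single cells were analysed in Python 3.11.15 with scanpy 1.11.5, leidenalg 0.10.2, scikit-learn 1.9.0 and scipy 1.17.1. Barcodes with at least 2000 genes and at most 10% mitochondrial UMIs were kept, scaled to 10000 UMIs, and clustered on 2000 variable genes without SOX genes (20 components, 15 neighbours, Leiden resolution 0.2), which gave 9 clusters. A cluster was named where at least 3 markers of a list reached 20 CPM and 1.5 times the mean over clusters, thresholds set after the data were seen. It stayed unnamed where another list had at least 3 further markers raised in this way, or held more of the 10 leading genes of the cluster. Scrublet marked 186 of 5224 barcodes (3.56%) in -4OHT and 0 of 6220 in +4OHT, where it did not work, and doublets were kept. UMIs were summed per class and library with exact Poisson intervals, and shares of cells have Clopper-Pearson intervals.

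Genes named are the 9 members, Pou5f1 and Pdgfra, the 3 genes most like Sox17, Sox7, Sox4 and Sox15 (at least 10 CPM in the highest group mean, prior count 2), and, of each list, the up to 4 genes past the threshold that changed most. Sox5, Sox6, Tcf7l2, Hhex, single markers and the leading genes of clusters were named as exceptions or small counts after their values were seen. Gene coordinates came from the GENCODE annotation of GRCm38 and promoters from RefSeq GRCm38.p6. The scripts were tested on simulated data.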

Additional observations from a re-analysis of the deposited data

How the results depend on the processing

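The number of members past the threshold was 0 between DP and Pdgfra+, 5 between DP and Oct4+ and 5 between Oct4+ and Pdgfra+, and 6 in both comparisons with Oct4+ where Sox18 was tested too, by DESeq2 or with no filter on low counts. With no minimum fold they were 0, 6 and 5. Over all genes, the 552 between DP and Pdgfra+ became 914 by DESeq2, 1023 with no filter and 975 with no minimum fold (3933 and 4535 became 7968 and 8970), and it dropped when a library was left out, to 363 (Pdgfra+ replicate 1), 148 (Pdgfra+ replicate 2), 57 (Pdgfra+ replicate 3), 124 (DP replicate 2) or 121 (DP replicate 3). Leaving out 1 library gave 0 to 1 between DP and Pdgfra+, the 1 being Sox4 at -1.58 without DP replicate 1. Within single clusters the 4 members past 2-fold in endoderm-like cells became 1 (cluster 0) and 0 (cluster 1), and Sox4 turned to 0.722 and 0.831. The Sox4 ratio over that class was 1.45 thinned, 1.47 as a mean per cell and 1.63 under a stricter barcode filter, and 3 members passed 2-fold in each of these and without the barcodes marked as doublets. Over all cells, thinning took the 4 members past 2-fold to 3 (Sox11 fell under the 20 CPM floor, at 19.2 CPM), and the stricter barcode filter took the ratio of Sox17 from 10.2 to 19, of Sox7 from 1.59 to 3.37 and of Sox9 from 9.17 to 14.5. The log2 fold change changed sign only for estimates that did not pass: Sox15 in DP against Pdgfra+ (-0.61 to 0.51 with 1 library left out, -0.61 without DP replicate 2 and -0.24 without Pdgfra+ replicate 3), Sox4 in Oct4+ against Pdgfra+ (-0.38 to 0.03, the latter without Pdgfra+ replicate 3) and Sox13 in the same comparison (0.01 under a stricter filter, -0.68 to 0.24 with 1 library left out, 0.05 without Pdgfra+ replicate 3 and 0.24 without Oct4+ replicate 3). The cause of these changes was not tested. DESeq2 moved the median log2 fold change of all genes to -0.197 for DP against Oct4+ and 0.234 for Oct4+ against Pdgfra+, against changes of 2.17 or more in size for the members past the threshold.

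With the replicate number as a block, the counts stayed at 0, 5 and 5, both in all 9 libraries and in the 6 compared, and over all genes they were 598, 3945 and 4548, and 713, 3767 and 4427, against 552, 3933 and 4535 without the block. No alternative gave a value for Epi-like cells between conditions, since +4OHT held 1 such cell. Counts of a few reads limit Sox18 and Sox9, for which 3 libraries a group cannot reach an exact permutation p below 0.1.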

Other observations

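With the single-cell clusters split more finely (Leiden resolution 0.6, 15 clusters), SoxC genes stood out in 1 endoderm-like cluster of 619 cells, 596 of them from +4OHT, led by Clu, Acta2 and Tagln. It had Sox4 at 187 CPM (178 to 196), Sox11 at 24.7 CPM (21.5 to 28.1) and Sox9 at 15.6 CPM (13.1 to 18.4), with Sox17 at 393 CPM, while the endoderm-like cells of +4OHT as a whole had 71.8, 4.33, 6.75 and 482 CPM. The trophectoderm-like cells split into 147 cells with Sox15 at 32.0 CPM (25.4 to 39.9), Sox17 at 64.5 CPM and no Sox7 UMI, and 54 unnamed cells, which shared Cidea, Cdkn1c and Ascl2 among their leading genes, with Sox15 at 13.2 CPM (7.96 to 20.6) and Sox17 at 330 CPM (301 to 361). An Epi-like cluster of 351 cells led by Fgfbp1, Lefty2 and Trh had Sox4 at 68.3 CPM (60.6 to 76.7) and Sox15 at 24 CPM (19.6 to 29.2). These clusters were described after their values were seen, and no test was run on them.

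Of the unnamed clusters of -4OHT, the 121 cells led by two-cell stage genes such as Zscan4d and Tcstv3 had Sox11 at 32.2 CPM (25 to 40.9) and Sox17 at 6.64 CPM (3.63 to 11.1). The 68 cells led by Lefty1, Lefty2 and Trh had Sox11, which is among their leading genes, at 29.8 CPM (22.8 to 38.4) together with Sox17 at 136 CPM (120 to 153). Their median depth was 28088 UMIs, against 19038 in Epi-like and 14965 in endoderm-like cells of the library. Endoderm markers summed to 4538 CPM in them and Epi markers to 4205 CPM. Doublets were kept, and their part in these values was not tested.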
